A study of Mus musculus with 15 samples.

Results

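The NRF2 pathway and the pentose phosphate enzymes were followed through 10 named genes in primary mouse hepatocytes. They are Nfe2l2, Srxn1, Gclc, Gclm, Txnrd1, Hmox1, Cbr3, Pgd, G6pdx and Taldo1, and every probe set that the platform annotation gives to a member symbol alone was taken. This gave 20 probe sets for 9 of the 10 genes, out of 45101 probe sets and 18193 genes with 1 symbol. G6pdx, the first enzyme of the pentose phosphate pathway, has no probe set under its symbol in the annotation used and is not analysed here. All 20 probe sets passed the background filter, so it removed no member. The filter rests on variation and correlation over the arrays and not on signal level. Passing it does not show that a member is expressed.

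RNA from hepatocytes of male C57BL/6 mice had been hybridised to 15 arrays, with 3 independent biological replicates in a group and 5 groups. These were freshly isolated cells (t0), monolayers kept in a tissue culture dish (TCD) for 4 h or 24 h, and 3D aggregates kept in a rotating wall vessel (RWV) for 4 h or 24 h. The labels name no allele, drug or mouse age, and the sources used here do not say whether the cells of an array came from 1 mouse or from a pool. Isolation from the liver is common to all groups, the fresh controls included. Every value below is a log2 change from the median of the 3 fresh arrays, so 1 log2 unit is a doubling. The comparison of the vessels asks how culture as aggregates changes hepatocytes relative to culture as a monolayer.

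NRF2, the protein of Nfe2l2, is a transcription factor that Keap1 marks for degradation in unstressed cells. Oxidants and electrophiles stop this degradation, and NRF2 then binds, with a small Maf protein, to antioxidant response elements near genes of glutathione synthesis, thioredoxin recycling, haem breakdown and NADPH supply. The pentose phosphate pathway makes NADPH in its oxidative arm, where G6pdx and Pgd act, and rebuilds sugars in its other arm, where Taldo1 acts. In liver the pathway is known for its part in the handling of drugs and oxidants.

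The core of the antioxidant response element, TGACNNNGC, was searched on both strands of the RefSeq promoter windows (build GRCm38.p6, 250 bases before to 50 after each start). Of 32851 windows 12.4% held it. Windows were given for 8 of the 10 genes, 11 windows in all, and 6 of these, of 6 genes, held a match. Gclc and Hmox1 have no entry. The matches of 4 measured genes are shown with 10 bases on each side, because they include the gene of NRF2 itself, the target with the strongest rise among those with a window at 4 h, and 1 enzyme from each of the thioredoxin and pentose phosphate systems. Capitals mark the match, read 5′ to 3′ along the gene's strand. In Nfe2l2 (chr2:75704885-75704913, minus strand) and Pgd (chr4:149166061-149166089, minus strand) the match is in the printed direction. In Srxn1 (chr2:152105542-152105570, plus strand) and Txnrd1 (chr10:82859104-82859132, plus strand) it is on the opposite strand and reads GCNNNGTCA. The matches of Pgd (bases 254 to 262 of its window) and Srxn1 (bases 279 to 287) lie after the start. The other Pgd window (chr4:149166656-149166955) holds no match, and neither do the Txnrd1 windows at chr10:82833701-82834000 and chr10:82860091-82860390.
Nfe2l2: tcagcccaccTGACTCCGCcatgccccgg
Srxn1: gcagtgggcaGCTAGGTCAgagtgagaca
Txnrd1: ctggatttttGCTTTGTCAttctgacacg
Pgd: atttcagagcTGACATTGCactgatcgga

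Longer stretches, the 250 bases before the start, are given for Gclm, which was not called above fresh cells at 4 h, and for Cbr3, which differed most between vessels. Gclm (chr3:122245307-122245556, plus strand) holds a match on the opposite strand, in capitals. Cbr3 (chr16:93682969-93683218, plus strand) holds no match in its window. A match is a description of letters and not a shown binding site. G6pdx, not measured, also holds a match, and the window of Taldo1 holds none.
Gclm: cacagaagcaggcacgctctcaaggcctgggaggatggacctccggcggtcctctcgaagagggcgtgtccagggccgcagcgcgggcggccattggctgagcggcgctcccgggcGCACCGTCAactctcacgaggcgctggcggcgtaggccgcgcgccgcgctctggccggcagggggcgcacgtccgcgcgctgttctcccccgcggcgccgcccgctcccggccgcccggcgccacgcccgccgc
Cbr3: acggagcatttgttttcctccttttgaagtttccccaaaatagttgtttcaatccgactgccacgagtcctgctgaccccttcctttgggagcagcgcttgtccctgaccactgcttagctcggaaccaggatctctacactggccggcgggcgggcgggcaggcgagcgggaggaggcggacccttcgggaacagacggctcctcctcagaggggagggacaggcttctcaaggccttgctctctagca

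Depth of signal could not be read from the files, because the fresh median had been subtracted from each probe set. A fold against fresh cells therefore has no known level beneath it, and very large ones may rest on the floor that the GCRMA background correction sets for weak signals. Whether fewer cells of a type or less RNA per cell stands behind a lower value cannot be told apart in bulk RNA. With 3 arrays per group, the number of arrays limits the precision. One array stood apart, replicate 2 of TCD at 4 h, on which the median of 18 spiked hybridisation controls was 1.08 (-0.73 to 0.18 on the other arrays), so results at 4 h are also given without it where it changes them. Hepatocyte markers (10 of 10 off the background) had array medians of -1.41 to -1.38 in TCD and -0.90 to -0.70 in RWV at 24 h. Gene by gene the markers were split. Of the 10, 1 was called higher and 1 lower in RWV than in TCD at 24 h (Cps1 and Hnf4a, where 8.36% and 6.87% of all genes were called), and the median difference was -0.17. Absence of a marker cannot be read from values centred on fresh cells.

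Across the members, aggregates had more Cbr3 and Pgd mRNA than monolayers at 4 h, and more Cbr3 and Taldo1 but less Hmox1 at 24 h. Each gene was represented by 1 probe set, the off-background one with the largest SD over the 15 arrays. A probe set was called where limma's adjusted p was below 0.05 over all 22096 probe sets tested. At 4 h 2 of 9 genes were higher in RWV and 0 were lower, while 5.39% of all 12423 genes tested were called higher and 0.676% lower. The median difference of the 9 genes was 0.24, against -0.01 over all genes. At 24 h 2 were higher and 1 was lower, where 8.36% of all genes were called higher and 6.87% lower, and the median was 0.51 against -0.00. The difference between the vessel effects at the 2 times (the interaction) was called higher for 1 of 9 genes, Taldo1, where 4.9% of all genes were called higher.

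Against fresh cells most members were higher in every cultured group. In TCD at 4 h 6 of 9 genes were higher and 0 lower (9.39% and 15.7% of all genes), and in RWV at 4 h 7 were higher and 1 lower (15% and 14.4%). After 24 h the counts were 5 higher and 1 lower in TCD (32.8% and 23.4%) and 7 higher and 1 lower in RWV (30.6% and 19.1%). From 4 h to 24 h 3 genes rose and 4 fell in TCD (36% and 19.5% of all genes), and 4 rose and 4 fell in RWV (26.3% and 15.1%). The share of members that rose in TCD over time was thus near that of all genes. The falls of Nfe2l2 and Gclm are those of their lead probe sets, and their other probe sets went the opposite way. Nfe2l2 1416543_at was called higher at 24 h than at 4 h in RWV (0.80, adjusted p = 0.00771). Gclm 1418627_at was called higher in TCD (0.34, adjusted p = 0.0206). The Gclm call ended without TCD replicate 2 of 4 h (0.0774), and its direction turned with arrays centred on reference genes. The 4 comparisons with fresh cells share the same 3 fresh arrays, so they are not independent of each other.

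**Figure D1:**
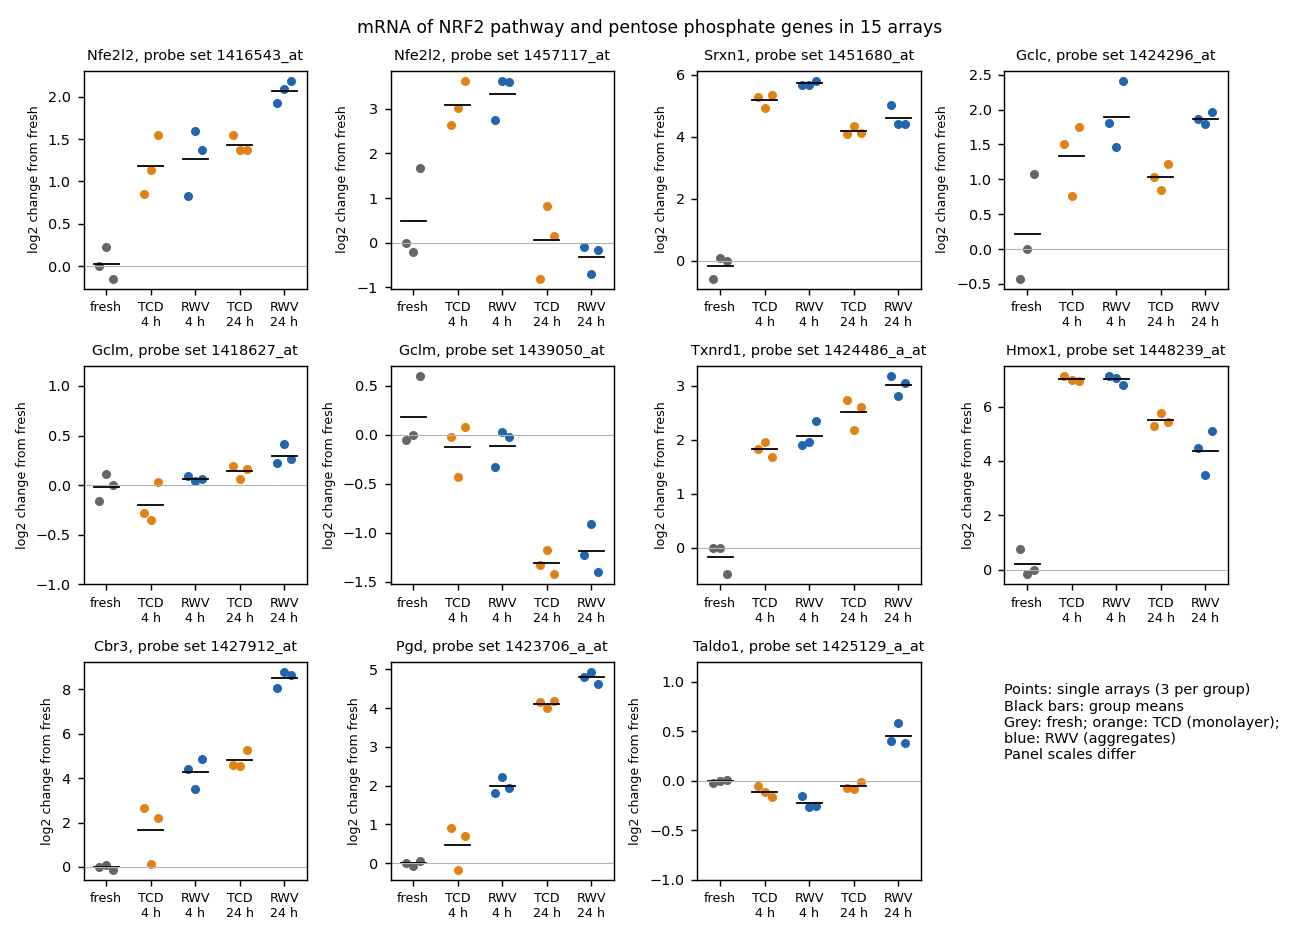
Log2 change from the fresh median (vertical axis) of 11 probe sets of the 9 genes, with 1 point per array, 3 arrays per group and a black bar at each group mean. Hmox1 and Srxn1 are highest at 4 h and lower at 24 h, Cbr3 and Pgd are highest at 24 h, and the 2 probe sets of Nfe2l2 and of Gclm go different ways. Panel scales differ.

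Nfe2l2 itself was read by 2 probe sets that did not follow each other over the 15 arrays (r = -0.10), so its direction at 24 h is uncertain. On 1416543_at the arrays of TCD stood at 0.86, 1.14 and 1.55 after 4 h and at 1.55, 1.37 and 1.37 after 24 h. Those of RWV stood at 0.83, 1.60 and 1.37 after 4 h and at 1.92, 2.09 and 2.19 after 24 h, and the fresh arrays at 0, 0.23 and -0.15. All cultured arrays lay above all fresh arrays on this probe set, and at 24 h all RWV arrays lay above all TCD arrays. The vessel difference at 24 h was 0.64 ± 0.203 (SE) and missed the threshold (adjusted p = 0.0568; 0.0235 with array weights and 0.0153 in a fit of only the 6 arrays compared), and at 4 h it was 0.09 ± 0.203 (adjusted p = 0.864). The rise over fresh cells was 1.15 in TCD and 1.24 in RWV at 4 h (adjusted p = 0.00141 and 0.000723) and 1.40 and 2.04 at 24 h (adjusted p = 7.79e-05 and 5.05e-06).

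The other Nfe2l2 probe set, 1457117_at, was high only early. It read 2.63, 3.01 and 3.63 in TCD and 2.74, 3.63 and 3.60 in RWV at 4 h, then -0.81, 0.83 and 0.14 in TCD and -0.08, -0.70 and -0.17 in RWV at 24 h. The fresh arrays were spread widely, at 0, -0.21 and 1.67. Every 4 h array lay above every fresh array, and the 24 h arrays overlapped the fresh ones. The rise at 4 h was 2.61 ± 0.516 in TCD (adjusted p = 0.00304, and 0.0533 in a fit of only the groups compared) and 2.84 ± 0.516 in RWV (adjusted p = 0.00148). The fall from 4 h to 24 h was -3.04 in TCD and -3.64 in RWV (adjusted p = 0.000325 and 0.000137). The vessels did not separate on it, with 0.23 ± 0.516 at 4 h and -0.38 ± 0.516 at 24 h (adjusted p = 0.858 and 0.771).

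Srxn1 encodes sulfiredoxin, which repairs overoxidised peroxiredoxins. Its lead probe set 1451680_at read 5.27, 4.93 and 5.34 in TCD and 5.68, 5.68 and 5.81 in RWV at 4 h, against -0.58, 0.09 and 0 in fresh cells. After 24 h it read 4.09, 4.36 and 4.14 in TCD and 5.04, 4.40 and 4.42 in RWV. Culture thus held Srxn1 far above fresh cells at both times. On this probe set the RWV arrays lay above the TCD arrays without overlap at each time. The rise over fresh cells was 5.34 ± 0.202 in TCD and 5.89 ± 0.202 in RWV at 4 h (adjusted p = 6.71e-09 and 3.81e-09), falling to 4.36 and 4.78 at 24 h (adjusted p = 5.74e-09 and 4.44e-09). The fall from 4 h to 24 h was -0.99 in TCD and -1.11 in RWV (adjusted p = 0.00128 and 0.000865).

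The vessel difference of Srxn1 depended on the probe set. On 1451680_at it was 0.54 ± 0.202 at 4 h (adjusted p = 0.154) and 0.42 ± 0.202 at 24 h (adjusted p = 0.208), neither called. At 4 h 1425351_at (0.77 ± 0.200, adjusted p = 0.0450) and 1426875_s_at (0.80 ± 0.180, adjusted p = 0.0253) were called higher in RWV, and 1419942_at was not (0.34, adjusted p = 0.569). The 4 probe sets followed each other over the arrays (r from 0.92 to 0.996). The vessels overlapped on 1419942_at at 4 h and 24 h and on 1425351_at at 24 h, and did not overlap on 1426875_s_at at either time. Without replicate 2 of TCD both calls ended (adjusted p = 0.146 and 0.0837), as they did without RWV replicate 2 (0.0724 and 0.0509) or 3 (0.166 and 0.102), and 1425351_at also lost its call without RWV replicate 1 (0.103) and with the replicate number as a block (0.0576). Both calls also ended with arrays centred on reference genes (0.0950 and 0.0609) and in a fit of only the 6 arrays compared (0.173 and 0.149), and 1425351_at with array weights (0.0503). The lead was called at 4 h with no background filter (adjusted p = 0.0490), as was the mean of the 4 probe sets (0.61, adjusted p = 0.0360).

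Gclc and Gclm encode the catalytic and the modifier subunit of glutamate cysteine ligase, the rate-limiting enzyme of glutathione synthesis. Gclc (1424296_at) read 1.50, 0.75 and 1.75 in TCD and 1.81, 1.47 and 2.42 in RWV at 4 h, and 1.03, 0.85 and 1.22 in TCD and 1.86, 1.79 and 1.96 in RWV at 24 h. The fresh arrays were -0.43, 0 and 1.08, and the highest of them overlapped both TCD groups. At 24 h the RWV arrays all lay above the TCD arrays, by a mean of 0.84 ± 0.362, which was not called (adjusted p = 0.162). It was called with array weights (0.0380) and in a fit of only the 6 arrays compared (0.0118). The second probe set, 1455959_s_at, gave 1.01 ± 0.353 there (adjusted p = 0.0807) and followed the first closely (r = 0.99).

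Relative to fresh cells Gclc rose in RWV, by 1.68 ± 0.362 at 4 h and 1.65 ± 0.362 at 24 h (adjusted p = 0.00437 and 0.00237). In TCD it was called at 4 h (1.12 ± 0.362, adjusted p = 0.0435) and not at 24 h (0.81, adjusted p = 0.0784). The TCD call at 4 h ended without TCD replicate 1 (adjusted p = 0.111) or 3 (0.134), without fresh replicate 1 (0.170) or 2 (0.123), with arrays centred on reference genes (0.0528), with no background filter (0.0630) and in a fit of only the 6 arrays compared (0.223). In such a fit the RWV call at 4 h also ended (0.0551). Without fresh replicate 3 the value at 24 h was 1.25 and was called (adjusted p = 0.00512), as it was with array weights (1.10, adjusted p = 0.00520).

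The 2 probe sets of Gclm disagreed (r = -0.53), so its direction is uncertain. The lead, 1439050_at, read -0.03, -0.43 and 0.08 in TCD and -0.33, 0.02 and -0.03 in RWV at 4 h, and -1.33, -1.17 and -1.42 in TCD and -1.23, -0.92 and -1.41 in RWV at 24 h, with fresh arrays at -0.06, 0 and 0.60. It lay below fresh cells in all 6 arrays of 24 h, by -1.49 in TCD and -1.36 in RWV (adjusted p = 3.51e-05 and 0.000103). The other, 1418627_at, stayed between -0.36 and 0.41 on all arrays. It was called higher than fresh cells in RWV at 24 h (0.31 ± 0.109, adjusted p = 0.0331), and that call ended without RWV replicate 2 (0.116) or 3 (0.0594) or fresh replicate 1 (0.124) or 3 (0.0600) and in a fit of only the groups compared (0.0523). Under centring on reference genes the direction flipped to -0.27. Between vessels neither probe set was called, with 0.02 and 0.27 at 4 h (adjusted p = 0.974 and 0.198) and 0.13 and 0.16 at 24 h (adjusted p = 0.816 and 0.415). At 4 h 1418627_at was called higher in RWV with no background filter (0.0467) and without TCD replicate 3 (0.39, adjusted p = 0.0410), and gave 0.12 with arrays centred on reference genes (0.529).

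Txnrd1 encodes the cytosolic thioredoxin reductase, which spends NADPH to keep thioredoxin reduced. On 1424486_a_at the arrays read 1.84, 1.95 and 1.68 in TCD and 1.90, 1.95 and 2.35 in RWV at 4 h. At 24 h they read 2.73, 2.18 and 2.60 in TCD and 3.17, 2.81 and 3.05 in RWV, with fresh arrays at 0, 0 and -0.49. From 4 h to 24 h the lead probe set rose by 0.68 in TCD and 0.95 in RWV (adjusted p = 0.00826 and 0.00140), and at 24 h each RWV array was above each TCD array. The rise over fresh cells was 1.98 ± 0.184 in TCD and 2.23 ± 0.184 in RWV at 4 h (adjusted p = 1.05e-05 and 3.76e-06) and 2.66 and 3.17 at 24 h (adjusted p = 1.44e-07 and 5.61e-08). The vessel difference was 0.24 at 4 h and 0.51 ± 0.184 at 24 h, not called at either time (adjusted p = 0.528 and 0.0914), though with array weights it was at 24 h (0.0424). The other 2 probe sets rose less over fresh cells, by 1.02 to 1.68, and followed the first with r of 0.89 and more. The rise in TCD over time depended on the centring. With arrays centred on reference genes the lead gave 0.17 in TCD (adjusted p = 0.421) and 0.59 in RWV (adjusted p = 0.0156), and neither of the others was called in either vessel. Without that centring 1424487_x_at gave 0.28 in TCD (adjusted p = 0.332).

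Hmox1 encodes haem oxygenase 1, the inducible enzyme of haem breakdown, and had the largest rise over fresh cells among the 9 genes at 4 h. Its probe set read 7.11, 6.99 and 6.96 in TCD and 7.13, 7.07 and 6.80 in RWV at 4 h, against 0.74, -0.17 and 0 in fresh cells. At 24 h it had come down to 5.29, 5.78 and 5.43 in TCD and to 4.48, 3.50 and 5.11 in RWV. The vessels overlapped at 4 h, and at 24 h all RWV arrays lay below all TCD arrays. The rise at 4 h was 6.83 ± 0.339 in TCD and 6.81 ± 0.339 in RWV (adjusted p = 7.32e-08 and 6.48e-08). The fall from 4 h to 24 h was -1.52 in TCD (adjusted p = 0.00232) and -2.64 in RWV (adjusted p = 6.61e-05).

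Between vessels Hmox1 differed by -0.02 ± 0.339 at 4 h (adjusted p = 0.980) and by -1.13 ± 0.339 at 24 h (adjusted p = 0.0434), a 2.20-fold lower value in RWV. This call ended without any one of TCD replicates 1 (adjusted p = 0.0632), 2 (0.154) and 3 (0.0953) or RWV replicates 1 (0.0749) and 2 (0.147), and without RWV replicate 2 the difference was -0.70. It also ended with no background filter (0.0813) and in a fit of only the 6 arrays compared (0.141). The difference between the vessel effects at the 2 times was -1.11 ± 0.480 and was not called (adjusted p = 0.161). It ranged from -0.68 without RWV replicate 2 of 24 h (adjusted p = 0.290) to -1.49 without RWV replicate 3 of 24 h, where it was called (adjusted p = 0.0476). Macrophages also express Hmox1, and 11 of 12 macrophage markers were off the background. Their array medians at 24 h ran from -0.02 to 3.07 in RWV and from -0.02 to 0.65 in TCD, and 1 of the 11, Cd68, was called, lower in RWV (6.87% of all genes were). Their part in the result was not tested.

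Cbr3 encodes a carbonyl reductase that uses NADPH, and it separated the vessels most among the 9 genes at both times. It read 2.66, 0.15 and 2.19 in TCD and 4.43, 3.53 and 4.86 in RWV at 4 h, then 4.61, 4.55 and 5.27 in TCD and 8.08, 8.80 and 8.65 in RWV at 24 h. The fresh arrays were 0, 0.09 and -0.13. No RWV array fell to the level of a TCD array of the same time, and the TCD arrays of 24 h were near the RWV arrays of 4 h. RWV exceeded TCD by 2.61 ± 0.538 at 4 h (6.09-fold, adjusted p = 0.0170) and by 3.70 ± 0.538 at 24 h (13.0-fold, adjusted p = 0.000723).

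The low TCD array of 4 h, 0.15, is replicate 2, which also had the high hybridisation controls. Without it the Cbr3 difference at 4 h was 1.85 (adjusted p = 0.0210). The call ended without RWV replicate 1 (adjusted p = 0.0550) or 3 (0.0738), and in a fit of only the 6 arrays compared (0.217). At 24 h the call held in every alternative run. The change of the vessel difference with time was 1.09 ± 0.761 (adjusted p = 0.394), and was not called. It ranged from 0.59 without TCD replicate 1 of 4 h (adjusted p = 0.640) to 1.85 without TCD replicate 2 of 4 h, where it was called (adjusted p = 0.0325), as it was with array weights (1.83, adjusted p = 0.0299). Over fresh cells Cbr3 rose by 4.28 in RWV at 4 h (adjusted p = 0.000100) and by 4.82 in TCD and 8.52 in RWV at 24 h (adjusted p = 8.28e-06 and 1.06e-07). In TCD at 4 h it rose by 1.68 ± 0.538 (adjusted p = 0.0414). That call ended without TCD replicate 1 (0.148) or 3 (0.123) and without any one fresh array (0.0807 to 0.0971). It also ended with no background filter (0.0620) and in a fit of only the groups compared (0.202). Without TCD replicate 2 the call held (2.44, adjusted p = 0.000646).

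Pgd encodes 6-phosphogluconate dehydrogenase, which makes NADPH in the oxidative arm of the pentose phosphate pathway. On 1423706_a_at the arrays read 0.90, -0.17 and 0.71 in TCD and 1.80, 2.23 and 1.94 in RWV at 4 h. At 24 h they read 4.17, 4.00 and 4.18 in TCD and 4.81, 4.94 and 4.63 in RWV, and the fresh arrays 0, -0.06 and 0.05. Pgd thus rose late in both vessels and earlier in the aggregates, and the vessels did not overlap at either time. At 4 h RWV exceeded TCD by 1.51 ± 0.221 (2.84-fold, adjusted p = 0.00331). All 4 Pgd probe sets, which moved together (r from 0.99 up), were called there, by 1.07 to 1.51. The call of the lead probe set held without TCD replicate 2 (1.18, adjusted p = 0.00211) and ended in a fit of only the 6 arrays compared (0.124), as did those of the other 3 (0.0565 to 0.0887).

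At 24 h the Pgd difference was 0.68 ± 0.221 on the lead probe set and 0.36 to 0.42 on the others, and none was called (adjusted p from 0.0622 to 0.140), though with array weights all 4 were (0.00461 on the lead). The vessel difference shrank from 4 h to 24 h on 3 probe sets, by -0.75, -0.78 and -0.66 (adjusted p = 0.0374, 0.0418 and 0.0466), while the lead gave -0.83 ± 0.313 and was not called (adjusted p = 0.111). Without TCD replicate 2 of 4 h the calls of all 3 ended (0.0691, 0.0640 and 0.0849), and with the replicate number as a block those of 1437380_x_at (0.0559) and 1438627_x_at (0.0573) did. Over fresh cells Pgd rose by 1.99 in RWV at 4 h (adjusted p = 4.03e-05) and by 4.12 in TCD and 4.80 in RWV at 24 h (adjusted p = 1.84e-08 and 8.34e-09). In TCD at 4 h the lead gave 0.49 (adjusted p = 0.145), the other 3 were called at 0.52 to 0.66, and without TCD replicate 2 the lead was called too (0.81, adjusted p = 0.00122). The lowest of those 3, 1437380_x_at, lost its call with arrays centred on reference genes (0.0574) and in a fit of only the groups compared (0.144, with 0.0602 for 1436771_x_at), without TCD replicate 1 (0.112) or 3 (0.0845) and without fresh replicate 1 (0.110) or 2 (0.0803).

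Taldo1 encodes transaldolase of the sugar-rebuilding arm, and its values moved little. They were -0.06, -0.11 and -0.17 in TCD and -0.16, -0.26 and -0.25 in RWV at 4 h, -0.07, -0.09 and -0.02 in TCD and 0.40, 0.58 and 0.38 in RWV at 24 h, and -0.02, 0 and 0 in fresh cells. Only the RWV arrays of 24 h lay clearly above fresh cells. The vessel difference was -0.11 ± 0.0740 at 4 h (adjusted p = 0.443) and 0.51 ± 0.0740 at 24 h (1.43-fold, adjusted p = 0.000689). The change of this difference with time, 0.63 ± 0.105, was called (adjusted p = 0.00329), and both calls held in every alternative that measured the gene.

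Small changes of Taldo1 against fresh cells depended on the centring of the arrays. It was higher in RWV at 24 h (0.46 ± 0.0740, adjusted p = 0.000237), but -0.13 when arrays were centred on reference genes (adjusted p = 0.296). The median of 9 reference genes stood at 0.48 to 0.65 on the 24 h arrays and at 0.04 to 0.30 on the 4 h arrays, so that this centring lowers values by that amount. In RWV at 4 h Taldo1 was -0.22 ± 0.0740 against fresh cells (adjusted p = 0.0449). This call ended with the replicate number as a block (0.0593), with array weights (0.0572), in a fit of only the groups compared (0.0567), without RWV replicate 2 (0.118) or 3 (0.118) and without fresh replicate 1 (0.0788), 2 (0.0903) or 3 (0.0887).

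**Figure D2:**
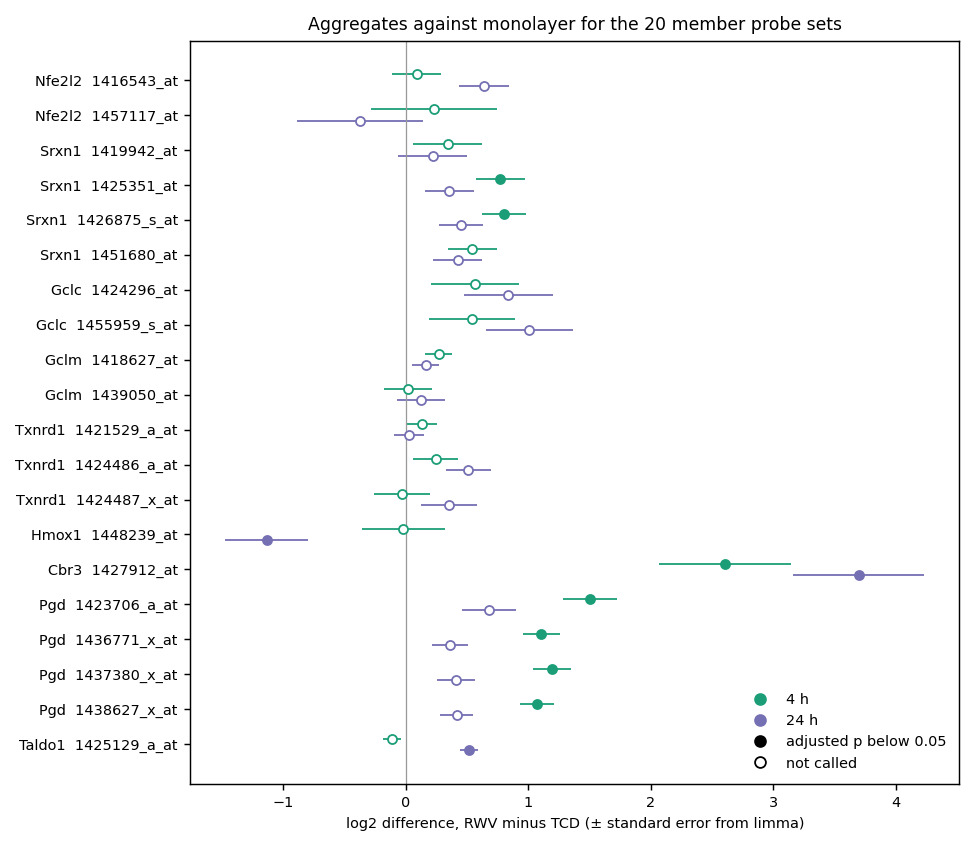
Log2 difference RWV minus TCD (horizontal axis) with its standard error from limma for each of the 20 probe sets, in green at 4 h and purple at 24 h, with filled points where the adjusted p was below 0.05. At 4 h 7 of 20 probe sets are filled, of Srxn1, Cbr3 and Pgd, and at 24 h Hmox1 is filled on the low side and Cbr3 and Taldo1 on the high side.

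Counted as probe sets, 7 of 20 were higher in RWV at 4 h, where 4.68% of all probe sets were called higher. These belong to Srxn1, Cbr3 and Pgd only. Probe sets of 1 gene are repeated readings and not separate members, and by gene the count was 2 of 9. Other genes of the pathway were taken from lists written from general knowledge and counted in the same fit. The lists were chosen with earlier results of these data known, so their counts are a description and not independent support. The lists also overlap. Of the genes tested, Gsr, Blvrb, Fth1, Me1, Txn1 and Bach1 each stand in more than 1 list and are counted in each. Of 11 NRF2 regulators tested 1 was higher at each time and 0 lower (5.39% and 8.36% of all genes were higher, the latter a near share), with medians of 0.17 and -0.33 (all genes -0.01 and -0.00). At 4 h this was Nfe2l1, a related factor that controls proteasome genes (1.39 ± 0.355, adjusted p = 0.0429), whose call ended without TCD replicate 2 (0.91, adjusted p = 0.0866), without RWV replicate 1 (0.124), 2 (0.0654) or 3 (0.140), and with arrays centred on reference genes (0.0588). At 24 h it was Btrc, a ubiquitin ligase subunit (0.40 ± 0.105, adjusted p = 0.0237), whose call ended without RWV replicate 2 (0.0558) or 3 (0.0888) or TCD replicate 1 (0.0808) or 3 (0.0883) and in a fit of only the 6 arrays compared (0.0574). As the mean of its probe sets Btrc gave 0.16 and was not called (adjusted p = 0.159). Keap1 was not called at 4 h (0.35, adjusted p = 0.636) or at 24 h (0.25, adjusted p = 0.764).

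Of 20 other NRF2 targets tested 11 were higher in aggregates and 0 lower at 24 h (8.36% and 6.87% of all genes), and 9 were not called, with a median difference of 0.92 against -0.00 over all genes. At 4 h 0 of 20 passed limma's adjusted threshold (5.39% of all genes were called higher), 3 had an unadjusted p below 0.05, and the median was 0.09. With no background filter 3 were called higher at 4 h, and with array weights 1. The change of the vessel effect with time was called higher for 9 of 20 (4.9% of all genes) and lower for 0. At 24 h the largest differences were those of Gstm3, a glutathione transferase (3.47 ± 0.346, adjusted p = 4.9e-05), Abcc4, an efflux pump (2.62 ± 0.571, adjusted p = 0.00886), Nqo1, a quinone reductase (2.10 ± 0.265, adjusted p = 0.000274), and Cbr1, a carbonyl reductase like Cbr3 (1.90 ± 0.440, adjusted p = 0.0126). The call of Cbr1 ended without RWV replicate 3 (1.71, adjusted p = 0.0539), and that of Abcc4 in a fit of only the 6 arrays compared (0.0998).

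Not all of these differences were rises over fresh cells. Nqo1 had group means of -0.30 in TCD and 1.79 in RWV at 24 h, Gstm3 of -0.62 and 2.84, and Cbr1 of -1.13 and 0.77, while Abcc4 was above fresh cells in both (1.89 and 4.50). Aox1 (-2.75 and -1.04) and Abcc2 (-1.55 and -0.43), also called higher in RWV than in TCD, had means below fresh cells in both. Of the 20 targets 6 were higher and 7 lower than fresh cells in TCD at 24 h (32.8% and 23.4% of all genes), a share of higher ones near that of all genes. In RWV 11 were higher and 2 lower (30.6% and 19.1%). These are not the same 11 that were called higher in RWV than in TCD. Nqo1, Gstm3, Gsr, Ephx1, Abcc4 and Blvrb were called in both. Gsta4, Gstm1, Abcc2 and Cbr1 were called between vessels but not against fresh cells in RWV (adjusted p = 0.0555, 0.349, 0.0521 and 0.386). Aox1 was called lower than fresh cells there (-1.02, adjusted p = 0.000492). The 3′ minus 5′ difference of the Actb controls, which bears on RNA integrity, was -0.45 to -0.43 in TCD and -0.26 to -0.22 in RWV at 24 h. Cholangiocyte markers (3 of 6 off the background) had array medians of 2.75 to 5.37 in TCD and 0.04 to 0.07 in RWV at that time. The part of either in these results was not tested.

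**Figure D3:**
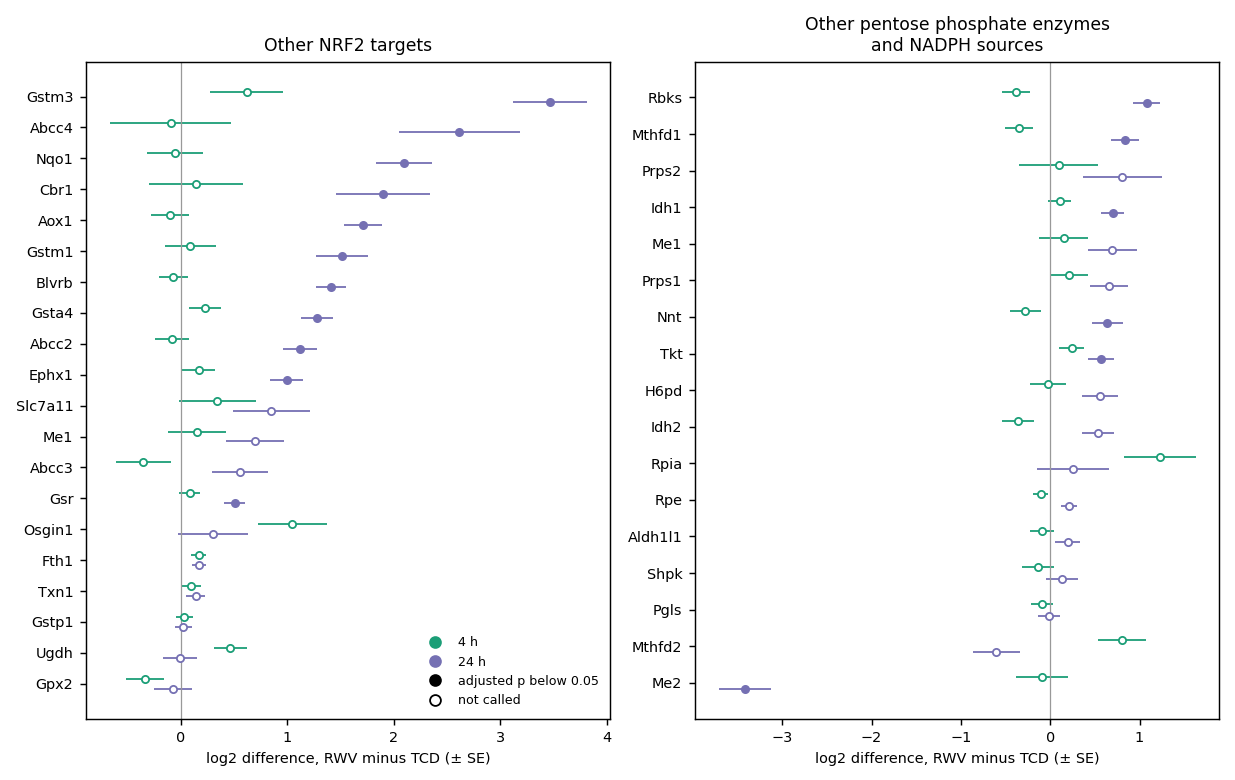
Log2 difference RWV minus TCD (horizontal axis, ± standard error from limma) of other NRF2 targets, left, and of other pentose phosphate enzymes and NADPH sources, right, in green at 4 h and purple at 24 h, filled where the adjusted p was below 0.05. Filled points occur only at 24 h, for 11 of 20 targets, 2 of 9 pentose phosphate enzymes and 4 of 8 genes listed as NADPH sources, and Me2 alone lies far on the low side. Of all genes 8.36% were called higher and 6.87% lower at 24 h.

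Of 9 other pentose phosphate enzymes 2 were higher in RWV at 24 h and 0 lower (8.36% and 6.87% of all genes), with a median of 0.56. They were Rbks, ribokinase (1.08 ± 0.155, adjusted p = 0.000655), which was below fresh cells in both vessels (-2.68 in TCD and -1.60 in RWV), and Tkt, transketolase (0.57 ± 0.142, adjusted p = 0.0185), which was above them (1.51 and 2.08). As the mean of its probe sets Tkt gave 0.20 (adjusted p = 0.494), and its call ended without TCD replicate 2 (0.0693) or 3 (0.0529) or RWV replicate 2 (0.0760) or 3 (0.0714). At 4 h 0 of the 9 were called by limma (5.39% of all genes were called higher and 0.676% lower), and 2 had an unadjusted p below 0.05.

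Among 8 genes listed as other sources of NADPH 3 were higher and 1 lower at 24 h (8.36% and 6.87% of all genes), with a median of 0.59. The lower one was Me2, a mitochondrial malic enzyme (-3.42 ± 0.292, adjusted p = 1.4e-05), which stood at 4.19 in TCD and 0.77 in RWV. Whether Me2 makes NADPH or NADH in these cells was not measured, so its change is not read as one of NADPH supply. The higher ones were Mthfd1 of folate metabolism (0.84 ± 0.155, adjusted p = 0.00326), Idh1, cytosolic isocitrate dehydrogenase (0.70 ± 0.132, adjusted p = 0.00384), and Nnt, the mitochondrial transhydrogenase (0.64 ± 0.171, adjusted p = 0.0264). Mthfd1 (-2.51 and -1.67), Idh1 (-1.51 and -0.81) and Nnt (-2.13 and -1.49) were all below fresh cells in TCD and RWV. The call of Nnt ended without any one of TCD replicates 1, 2 and 3 or RWV replicates 2 and 3 (adjusted p = 0.0546 to 0.105) and in a fit of only the 6 arrays compared (0.105). At 4 h 0 of the 8 were called (5.39% of all genes were called higher and 0.676% lower), and 2 had an unadjusted p below 0.05.

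Glutathione enzymes had 0 of 11 called at 4 h (5.39% of all genes were called higher and 0.676% lower), where 0 had an unadjusted p below 0.05. At 24 h 3 of 11 were higher and 0 lower (8.36% and 6.87% of all genes), with a median of 0.10. Gss, glutathione synthetase, was higher by 1.88 ± 0.344 (adjusted p = 0.00312), Gsr, glutathione reductase, by 0.51 ± 0.0990 (adjusted p = 0.00472) and Gpx4, a peroxidase of lipid peroxides, by 0.35 ± 0.0921 (adjusted p = 0.0255). The call of Gpx4 ended without TCD replicate 1 (0.0566) or 2 (0.1003) or RWV replicate 2 (0.0984) or 3 (0.0970), with arrays centred on reference genes (0.0511) and in a fit of only the 6 arrays compared (0.0649).

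Thioredoxin and peroxiredoxin genes had 2 of 10 higher at 4 h, and 1 higher and 1 lower at 24 h (medians 0.01 and 0.04). Of all genes 5.39% were called higher at 4 h, and 8.36% higher and 6.87% lower at 24 h. The counts of 24 h were near those shares. Txnip, an inhibitor of thioredoxin, was higher by 4.14 ± 0.752 at 4 h (adjusted p = 0.00942), with -2.47 in TCD and 1.67 in RWV. Txnrd3, a reductase of the same family as Txnrd1, was higher by 0.92 ± 0.166 at 4 h (adjusted p = 0.00910) and lower by -0.56 at 24 h (adjusted p = 0.0422). As the mean of its probe sets its call at 4 h was lost (0.39, adjusted p = 0.121), and the call at 24 h ended without any one of the 6 arrays compared (adjusted p = 0.0575 to 0.147), with no background filter (0.0665) and with arrays centred on reference genes (0.0522). Prdx3, the mitochondrial peroxiredoxin, was higher at 24 h (0.65 ± 0.0821, adjusted p = 0.000264).

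Genes of haem breakdown and oxidative stress had 2 of 10 higher at 4 h (5.39% of all genes) and 1 of 10 at 24 h (8.36% of all genes, a near share), with 0 lower (medians -0.09 and 0.17). At 4 h these were Slc40a1, the iron exporter ferroportin (1.70 ± 0.444, adjusted p = 0.0464), and Sod1, a superoxide dismutase (1.06 ± 0.226, adjusted p = 0.0192). As the mean of its probe sets Sod1 was at 0.22 and not called (adjusted p = 0.256). Both calls ended without TCD replicate 2 (adjusted p = 0.148 and 0.0534) or RWV replicate 3 (0.123 and 0.0738), and that of Slc40a1 also without TCD replicate 1 (0.101) or RWV replicate 1 (0.128) or 2 (0.102) and with arrays centred on reference genes (0.0599). In a fit of only the 6 arrays of 4 h the calls of Nfe2l1 (0.255), Txnip (0.117), Txnrd3 (0.146), Slc40a1 (0.248) and Sod1 (0.114) ended. At 24 h Blvrb, biliverdin reductase B, which acts after haem oxygenase, was higher by 1.41 ± 0.136 (adjusted p = 3.92e-05), with -0.57 in TCD and 0.84 in RWV, while Hmox1 was lower.

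The genes whose patterns were most like those of 3 members were named by their Pearson correlation over the 15 arrays, a description of shared time courses. Srxn1 was nearest to Ets2 (r = 0.99), Phf3 (0.98) and Rpf2 (0.98). Hmox1 was nearest to Jund (0.99), Btc (0.97) and Fosl1 (0.97), and Pgd to Mgat4b (0.99), Faf1 (0.98) and Mtmr11 (0.98). The 15 points share their arrays and their 5 groups. Btc, like Hmox1, stood high at 4 h (6.00 in TCD and 6.62 in RWV) and lower at 24 h (4.29 and 4.53). Mtmr11, like Pgd, was higher in RWV than in TCD at 4 h (1.93 and 0.10) and high in both at 24 h (6.63 and 6.28).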

How the data were processed

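Each of the 15 arrays measured biotin-labelled RNA extracted with RNeasy columns. The deposited values are log2 signals that the authors made with GCRMA, per the submitters' processing notes (version not given there), and the fresh median had been subtracted in all 45101 probe sets (tolerance 1e-06, read from the values). The base of the logarithm is that of GCRMA.

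There were 64 control probe sets, 34945 with 1 symbol, 932 with several and 9160 with none. A probe set with an SD below 0.5 whose correlation with the array medians of the 20% of probe sets that varied least exceeded 0.8 counted as background (19608 did). The rest with 1 symbol, 22096 probe sets of 12423 genes, entered limma 3.58.1 in R 4.3.3 (lmFit, contrasts.fit, eBayes), with 5 group means, all 15 arrays and 10 residual degrees of freedom, and Benjamini-Hochberg adjustment within each comparison at 0.05. The fit was tested on simulated data. The named genes were all member probe sets, up to 4 called genes of each list with the largest changes between vessels, and the 3 genes most correlated with Srxn1, Hmox1 and Pgd.

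The labels do not say what the replicate numbers mark. After group means were removed, each of the 15 arrays lay nearest to one with its own number, and all 3 same-number correlations exceeded 0.1 in 5 of 10 pairs of groups, RWV and TCD at 4 h (0.34, 0.48 and 0.49) among them, so in these pairs the numbers were taken to pair the arrays. The pairing comes from the data. The fit reported did not use it for any comparison, and the block was an alternative. The other alternatives were no background filter, averaged probe sets per gene, no probe sets of shared sequence, centring on reference genes, only the groups compared, array weights and leaving out each array. The members and gene lists were chosen with earlier results of these data known.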

Additional observations from a re-analysis of the deposited data

Results flagged for a closer look

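The vessel effect (RWV minus TCD) changed between 4 h and 24 h, by the interaction term in limma, for Taldo1 and for 3 of the 4 probe sets of Pgd. For Taldo1 the change was 0.63 ± 0.105 (adjusted p = 0.00329), from -0.11 at 4 h to 0.51 at 24 h. For Pgd it was -0.75 on 1436771_x_at (adjusted p = 0.0374), -0.78 on 1437380_x_at (adjusted p = 0.0418) and -0.66 on 1438627_x_at (adjusted p = 0.0466), where RWV exceeded TCD by 1.07 to 1.19 at 4 h and by 0.36 to 0.42 at 24 h. The adjusted p of these 3 probe sets rose above 0.05 without most single arrays, among them TCD replicate 2 of 4 h (0.0691, 0.0640 and 0.0849) and RWV replicate 3 of 24 h (0.0786, 0.0915 and 0.104), and with centring on reference genes (0.0889, 0.0857 and 0.129). No sample was tested as an outlier, because groups of 3 are too small for that.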

How the results depend on the processing

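The value table holds changes from fresh cells and no signal level, so what a weak signal over background limits could not be measured, and 3 arrays per group limit every comparison. Values called in the fit reported changed direction only with centring on reference genes, for Taldo1 and Gclm 1418627_at.

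Counts of member genes called moved by more than 1.5 times in these cases. In RWV against TCD at 4 h the 2 of 9 became 1 of 6 without probe sets of shared sequence and 0 with only the groups compared. At 24 h the 3 became 6 with array weights. For the interaction the 1 became 2 with averaged probe sets and with array weights, and 0 without probe sets of shared sequence, which leaves Taldo1 out. Without such probe sets 5 of 6 genes were called in RWV against fresh at 4 h and at 24 h and in 24 h against 4 h in RWV, and with only the groups compared 3 of 9 were called in TCD against fresh at 4 h. Other NRF2 targets higher at 4 h (0 of 20) became 3 with no background filter and 1 with array weights. When single arrays were left out, members called ranged from 1 to 2 at 4 h, 2 to 3 at 24 h and 1 to 2 for the interaction. Against fresh cells they ranged from 4 to 7 (TCD, 4 h), 7 to 8 (RWV, 4 h), 6 to 7 (TCD, 24 h) and stayed at 8 (RWV, 24 h).

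Directions turned in these cases, and the cause was not tested. Centred on reference genes, Gclm 1418627_at gave 0.047 for the interaction, -0.15 (RWV, 4 h), -0.44 (TCD, 24 h, adjusted p = 0.00647) and -0.27 (RWV, 24 h) against fresh cells, and -0.17 and -0.12 for 24 h against 4 h in TCD and RWV. Taldo1 gave -0.13 (RWV, 24 h against fresh) and -0.46 (24 h against 4 h in TCD, adjusted p = 0.00181), Nfe2l2 1416543_at -0.058 (vessels, 4 h) and -0.26 (24 h against 4 h in TCD), Gclm 1439050_at -0.13 (vessels, 4 h) Srxn1 0.036 (1451680_at) and 0.033 (1419942_at) for the interaction, Txnrd1 1421529_a_at -0.011 (vessels, 4 h) and 0.044 (interaction), Txnrd1 1424487_x_at -0.23 (24 h against 4 h in TCD) and Gclc 1455959_s_at -0.31 (24 h against 4 h in RWV). With averaged probe sets Nfe2l2 gave 0.13 (vessels, 24 h), 0.49 and 0.62 (TCD and RWV at 24 h against fresh) and Gclc 0.0078 (24 h against 4 h in RWV). Array weights gave -0.093 for Gclm 1439050_at and 0.0104 for Txnrd1 1424487_x_at at 4 h. Leaving out single arrays turned uncalled values only: vessels at 4 h ranged from -0.078 to 0.31 for Nfe2l2 1416543_at, -0.14 to 0.12 for Gclm 1439050_at -0.11 to 0.067 for Txnrd1 1424487_x_at and -0.084 to 0.078 for Hmox1, and at 24 h from -0.0069 to 0.24 for Gclm 1439050_at -0.063 to 0.086 for Txnrd1 1421529_a_at and -0.81 to 0.012 for Nfe2l2 1457117_at. The interaction ranged from -0.023 to 0.26 for Gclm 1439050_at -0.33 to 0.0033 for Srxn1 1451680_at and -0.46 to 0.078 for Srxn1 1419942_at, Gclc in RWV over time from -0.24 to 0.23 (1424296_at) and -0.17 to 0.24 (1455959_s_at), and Nfe2l2 1457117_at in TCD at 24 h against fresh from -0.82 to 0.16.

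The replicate block changed the counts of members called to 4 at 24 h (from 3). Where the numbers were not taken to pair the arrays it moved Gclc (adjusted p = 0.0488 on 1424296_at, 0.0167 on 1455959_s_at) and Nfe2l2 1416543_at (0.0449) below the threshold for RWV against TCD at 24 h and Gclc (0.0194 and 0.0437) for TCD at 24 h against fresh. It moved Srxn1 1425351_at (0.0576, vessels at 4 h), Taldo1 (0.0593, RWV at 4 h against fresh) and Pgd 1437380_x_at (0.0559) and 1438627_x_at (0.0573, both for the interaction) above it.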
